A study of Oryza sativa with 9 samples.

Results

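SWEET proteins are sugar transporters of plants that let sugars move through a membrane down their concentration gradient. Those of the plasma membrane release sucrose or hexoses from cells, and sucrose released near the veins is what the phloem loads for export from a leaf. In rice, several of these genes also feed the filling grain, and some are switched on by bacterial blight pathogens, which live on the sugar released. The 7 genes described here are SWEET4 (Os02g0301100, chromosome 2), SWEET5 (Os05g0588500, chromosome 5), SWEET11 (Os08g0535200, chromosome 8), SWEET12 (Os03g0347500, chromosome 3), SWEET13 (Os12g0476200, chromosome 12), SWEET14 (Os11g0508600, chromosome 11) and SWEET15 (Os02g0513100, chromosome 2). They were taken by identifier from a table of 37858 rice genes, and all 7 were in it. SWEET4 and SWEET5 belong to the clade of mainly hexose and galactose transporters, and SWEET11 to SWEET15 form the clade of mainly sucrose transporters.

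Transcripts were measured by RNA sequencing in leaves of rice (Oryza sativa) sampled 85 days after sowing, by the age label of every library and the names of the table's columns. The sample titles of OE and WT end in a different number from those of the mutant, and the labels explain neither. Whether all genotypes were of exactly the same age therefore could not be checked. In the mutant titles the first number is joined to the group name, and whether it marks a line is not stated. The mutant group carried an OsCOMT mutation whose type the labels do not give, the OE group overexpressed OsCOMT from a construct that the labels do not describe, and WT was the wild type. OsCOMT encodes a caffeic acid O-methyltransferase of lignin synthesis that also acts in melatonin synthesis. Each genotype had 3 libraries of 10674819 to 11809530 reads, 9 in all. Nothing in the labels tells if the libraries of a genotype stem from different plants, or from how many lines, so p-values measure the spread between these libraries, which may be technical. Levels are in FPKM, which divides the reads of a gene by its length and by the library's size. OsCOMT levels were 226, 398 and 458 FPKM in the mutant, 1945, 3162 and 2823 FPKM in OE, and 259, 237 and 228 FPKM in WT. It was thus higher in all OE libraries, as their label says, while its level does not check the mutant label. Of 7 leaf markers, the reference table supports the names of 2, and neither was at 0. These genes, RCA, which encodes rubisco activase, and CAB2R, which encodes a chlorophyll-binding antenna protein, summed to 2292 to 3230.1 FPKM in the mutant, 1031 to 2125 FPKM in OE and 661 to 1978 FPKM in WT. The sum hides opposite directions. RCA averaged 2502 ± 486 FPKM in the mutant, 170.5 ± 58.1 FPKM in OE and 192 ± 7.06 FPKM in WT (SD, n = 3 each; mutant against WT log2(FPKM + 1) fold change 3.68, limma adjusted p = 6.3e-06). CAB2R averaged 409 ± 186 FPKM in the mutant, 1384 ± 523 FPKM in OE and 1102 ± 667 FPKM in WT (SD, n = 3 each). Its log2 fold change in the mutant was -1.31 against WT (limma adjusted p = 0.057) and -1.78 against OE (limma adjusted p = 0.016, lost without mutant replicate 1 or 3 or OE replicate 1, with adjusted p up to 0.059). The part of these shifts in the SWEET levels was not tested.

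Leaves of all 3 genotypes held transcripts of SWEET4, SWEET13 and SWEET14 in every library, and only these 3 of the 7 genes reached the mean of 1 FPKM needed for the test across all genes. SWEET4 had the highest level in OE and WT leaves, and SWEET13 had the highest level in the mutant. SWEET15 had reads in mutant libraries alone, SWEET5 had a few reads in OE and WT libraries alone, and SWEET11 and SWEET12 had 0 reads in all 9 libraries. In bulk leaves, fewer cells of a type and less RNA per cell cannot be told apart.

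**Figure D1:**
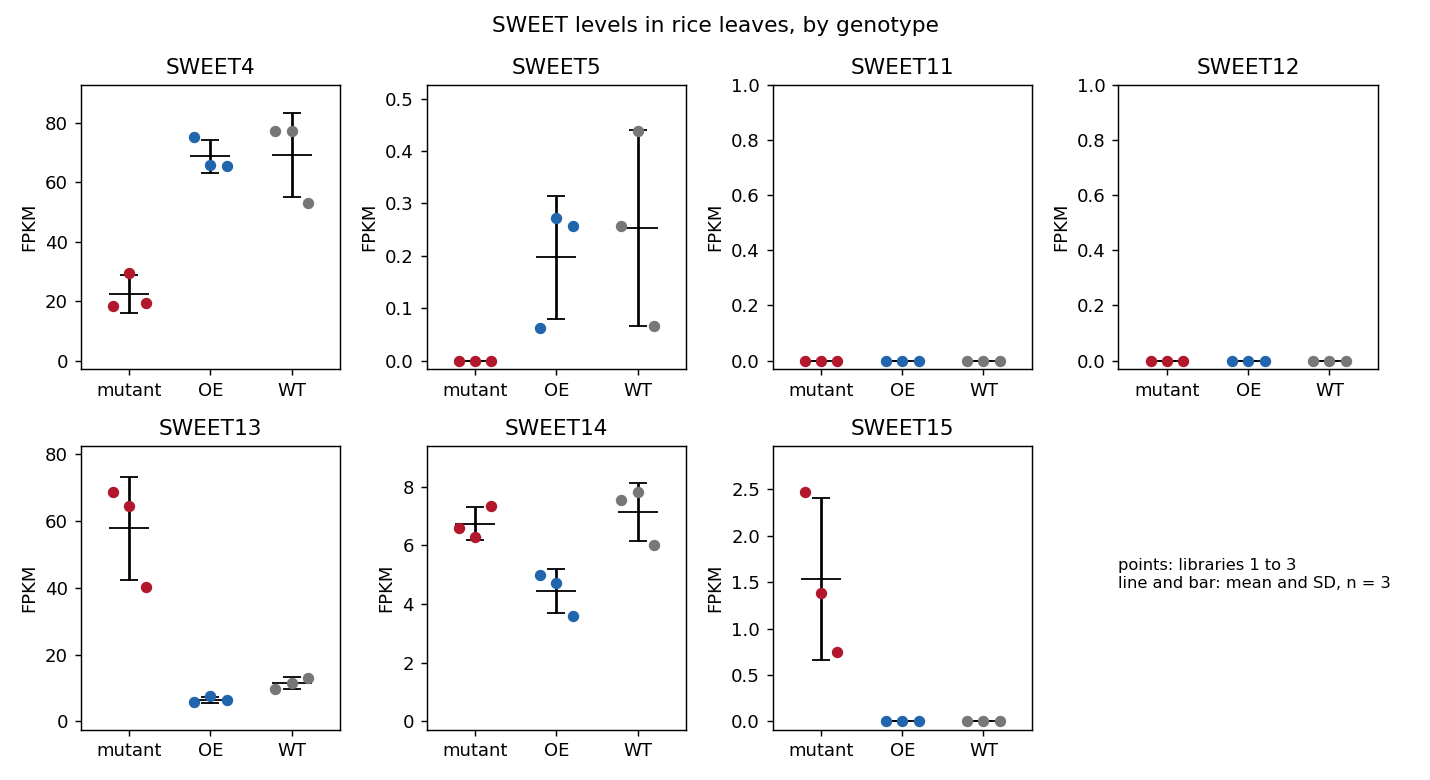
FPKM of the 7 SWEET genes in each library (points), with the mean and SD of each genotype (line and bar, n = 3), on a linear axis of its own for each gene. The mutant points lie below all others for SWEET4 (18.2 to 29.7 FPKM) and above all others for SWEET13 (40.1 to 68.7 FPKM), and SWEET11 and SWEET12 are at 0 throughout.

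SWEET4 transports glucose and fructose and is known in rice for its part in early grain filling. Its level was 18.2, 29.7 and 19.4 FPKM in the mutant libraries, 75.1, 65.7 and 65.4 FPKM in the OE libraries and 77.4, 77.3 and 53.1 FPKM in the WT libraries. All mutant libraries were low and none reached the lowest library of OE or WT (29.4% of 19850 tested genes lay below WT without overlap, and 27.1% below OE), while the OE and WT ranges overlapped. The mean was 22.4 ± 6.30 FPKM in the mutant and 69.2 ± 14.0 FPKM in WT (SD, n = 3 each), 3.09-fold lower in the mutant. On the scale of log2(FPKM + 1), used for all fold changes tested here, SWEET4 fell by 1.60 in the mutant against WT (SE 0.20, limma adjusted p = 0.0002). The mean in OE was 68.7 ± 5.53 FPKM (SD, n = 3). The log2 fold change of OE against WT was 0.01, with a 95% interval of -0.43 to 0.45 (limma adjusted p = 0.99). Its sign depended on the processing, which gave values of -0.17 to 0.10. Against OE, SWEET4 was lower in the mutant by the same margin (log2 fold change -1.60, SE 0.20, limma adjusted p = 0.00019).

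SWEET13 is a sucrose transporter of the plasma membrane and one of the genes that blight bacteria switch on. It had 1235, 1135 and 738 reads in the mutant libraries, 112, 134 and 120 reads in the OE libraries and 185, 225 and 244 reads in the WT libraries. These reads correspond to 68.7, 64.3 and 40.1 FPKM in the mutant, 5.74, 7.51 and 6.36 FPKM in OE and 9.77, 11.6 and 13.1 FPKM in WT. The 3 genotypes did not overlap, with the mutant highest, WT between and OE lowest. Groups did not overlap in either direction for 55.4% of tested genes between the mutant and WT and for 52.5% between the mutant and OE. SWEET13 averaged 57.7 ± 15.4 FPKM in the mutant and 11.5 ± 1.68 FPKM in WT (SD, n = 3 each), a ratio of means of 5.02. It rose in the mutant by 2.20 on the log2 scale (SE 0.20, limma adjusted p = 3.1e-05), and 306 of 19850 tested genes (1.54%) had a larger rise. In OE the mean was 6.54 ± 0.899 FPKM (SD, n = 3), with a log2 fold change against WT of -0.73 and a 95% interval of -1.17 to -0.28. That difference did not pass over all genes (unadjusted p = 0.0047, limma adjusted p = 0.25), although each OE library was below each WT library, as for 8.81% of tested genes. Between the mutant and OE the difference was 2.93 on the log2 scale (SE 0.20, limma adjusted p = 6.2e-06), and 121 of the tested genes (0.61%) were higher by more.

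SWEET14, a sucrose transporter of the same clade and another target of blight bacteria, was low and of similar level in mutant and WT leaves. Its level was 6.60, 6.28 and 7.35 FPKM in the mutant libraries, 4.99, 4.72 and 3.58 FPKM in the OE libraries and 7.55, 7.83 and 6.02 FPKM in the WT libraries. The OE libraries lay below all others, and the mutant and WT ranges overlapped. Of all tested genes, 8.81% lay lower in OE than in WT without overlap. Between the mutant and OE, groups did not overlap in either direction for 52.5%. Means were 6.74 ± 0.551 FPKM in the mutant, 4.43 ± 0.748 FPKM in OE and 7.13 ± 0.974 FPKM in WT (SD, n = 3 each). The log2 fold change of the mutant against WT was -0.07 with a 95% interval of -0.39 to 0.25 (limma adjusted p = 0.74). That of OE against WT was -0.58 with a 95% interval of -0.90 to -0.27, and it did not pass over all genes (unadjusted p = 0.0024, limma adjusted p = 0.22). SWEET14 was higher in the mutant than in OE by 0.52 on the log2 scale (SE 0.14, limma adjusted p = 0.016). This call was lost without mutant replicate 3 (0.46, adjusted p = 0.0504) and without OE replicate 3 (0.40, adjusted p = 0.0523).

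**Figure D2:**
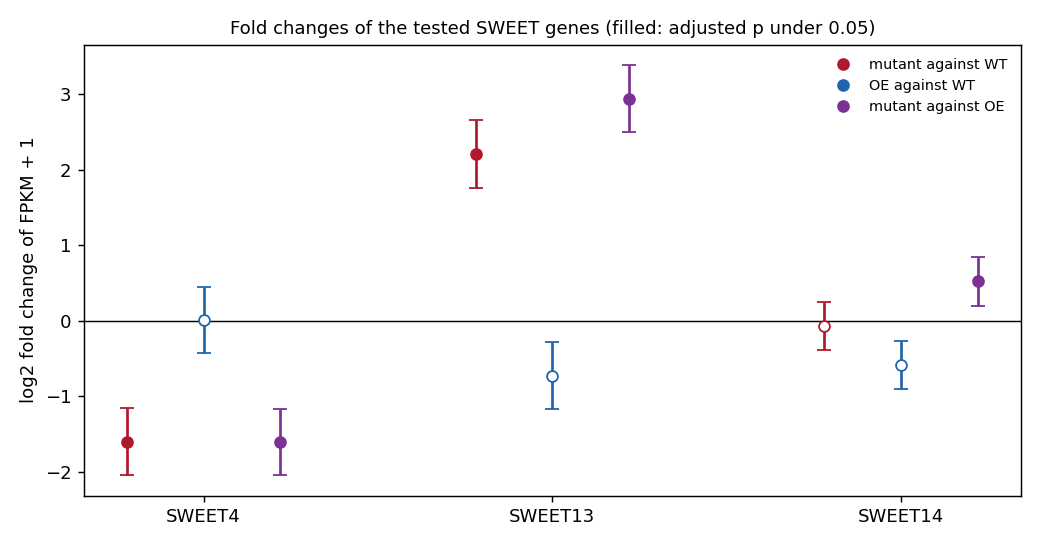
Log2 fold changes of FPKM + 1 for the 3 tested SWEET genes in the 3 comparisons, with 95% intervals from the fit across all genes. Filled points passed an adjusted p under 0.05 and open points did not (SWEET14 in the mutant against WT, at -0.07, and all 3 genes in OE against WT).

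Of the 3 tested genes, 1 rose and 1 fell in the mutant against WT, where 42.0% of 19850 tested genes passed an adjusted p under 0.05 in limma (19.6% higher and 22.4% lower). In OE against WT none of the 3 passed with limma or with voom on reads, where 0.232% of all genes passed (0.171% higher and 0.0605% lower). SWEET13 and SWEET14 had an unadjusted p under 0.05 there. Their OE libraries did not overlap those of WT, which held for 16.4% of all tested genes in this comparison, with 8.81% lower in OE. Between the mutant and OE all 3 passed, against 43.4% of all genes (20.5% higher and 22.9% lower), with SWEET13 and SWEET14 higher and SWEET4 lower. With so many genes called in the mutant comparisons, these counts do not set the SWEET genes apart. The comparisons with WT share the same WT libraries, and both comparisons of the mutant share its libraries.

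SWEET15, which acts with SWEET11 in filling the rice grain, was at or near the limit of detection. It had 42, 23 and 13 reads in the mutant libraries (2.47, 1.38 and 0.748 FPKM), against 0 reads in each OE library and each WT library. All mutant libraries therefore held the transcript at a low level, at 1.53 ± 0.873 FPKM (SD, n = 3). Taking 3 reads over the WT libraries as the limit of a count of 0, and the 78 mutant reads as counted, the mutant was at least 27.4-fold higher. Against OE it was at least 27.1-fold higher. These bounds allow for counting error in the count of 0 only, not in the 78 reads, and not for spread between libraries. The gene's mean over all libraries was 0.511 FPKM, below the level tested. An exact two-sided permutation test gave p = 0.1 for the mutant against WT, which is the smallest p that 3 against 3 allows. When genes of any level were tested, SWEET15 passed in the mutant against WT (log2 fold change 1.28, SE 0.20, limma adjusted p = 0.0015), as did 8792 of 30062 genes. This SE pools the spread of all genotypes. The OE and WT libraries, all at 0, add no spread, so the SE may understate that among the mutant libraries.

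Because SWEET15 and SWEET4 are known from the grain, the grain genes GluA1, which encodes a storage glutelin, and Wx, the starch synthase of amylose, were read beside them. They are the 2 of 7 grain markers whose names the reference table supports. Their sum was 3.73 to 5.84 FPKM in the mutant, 2.07 to 3.78 FPKM in OE and 2.59 to 3.58 FPKM in WT, and neither was at 0. GluA1 was at 1.64 ± 0.458 FPKM in the mutant and 1.66 ± 0.449 FPKM in WT (SD, n = 3 each). Wx rose in the mutant against WT by 0.68 on the log2 scale (SE 0.17, limma adjusted p = 0.012). The part of grain transcripts in the SWEET15 reads was not tested.

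SWEET5, which encodes a galactose transporter, had 0 reads in the 3 mutant libraries, 1, 4 and 4 reads in the OE libraries and 4, 7 and 1 reads in the WT libraries. The reads were too few for more than a bound. With the mutant set at the floor of 3 reads, its level was at least 3.80-fold lower than in WT and 2.88-fold lower than in OE. These bounds take the WT and OE reads as counted, without their own counting error, which is large for so few reads. Between OE and WT the ratio was 0.759, with a 95% counting interval of 0.282 to 1.96. The exact permutation test gave p = 0.1 for the mutant against WT. With genes of any level in the test, SWEET5 did not pass there (log2 fold change -0.31, limma adjusted p = 0.058).

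SWEET11, the main sucrose exporter of the young rice grain, and SWEET12, a less studied gene of the same clade, were listed at 0 in every library. A count of 0 allows up to 3 reads over the libraries of a genotype, out of 32666803 reads in the mutant, 34017351 in OE and 34422606 in WT. At this depth no level and no difference between genotypes was detectable for either gene.

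Since FPKM is scaled to gene length, the genes can be set side by side. The summed level of the 7 genes was 96.0, 102 and 67.6 FPKM in the mutant libraries, 85.9, 78.2 and 75.6 FPKM in OE and 94.9, 97.1 and 72.3 FPKM in WT. These ranges overlapped, with means of 88.4 ± 18.2 FPKM in the mutant, 79.9 ± 5.37 FPKM in OE and 88.1 ± 13.8 FPKM in WT (SD, n = 3 each). The sum leaves out the other SWEET genes described below, so it does not stand for the whole family. Among those, SWEET2b averaged 94.5 FPKM in the mutant, 1.06 FPKM in OE and 0.654 FPKM in WT. SWEET3a went the other way, at 3.90 FPKM in the mutant, 3.11 FPKM in OE and 12.4 FPKM in WT. Within the 7 genes, the makeup differed. SWEET13 made up 59.4% to 71.6% of the sum in the mutant, 6.68% to 9.60% in OE and 10.3% to 18.2% in WT. SWEET4 made up 19.0% to 29.2% in the mutant, 84.0% to 87.4% in OE and 73.4% to 81.5% in WT. The ratio of SWEET13 to SWEET4 was 3.77, 2.17 and 2.07 in the mutant libraries, 0.0764, 0.114 and 0.0973 in OE and 0.126, 0.15 and 0.247 in WT. SWEET14 stayed a minor part, at 6.18% to 10.9% in the mutant, 4.74% to 6.03% in OE and 7.95% to 8.33% in WT.

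**Figure D3:**
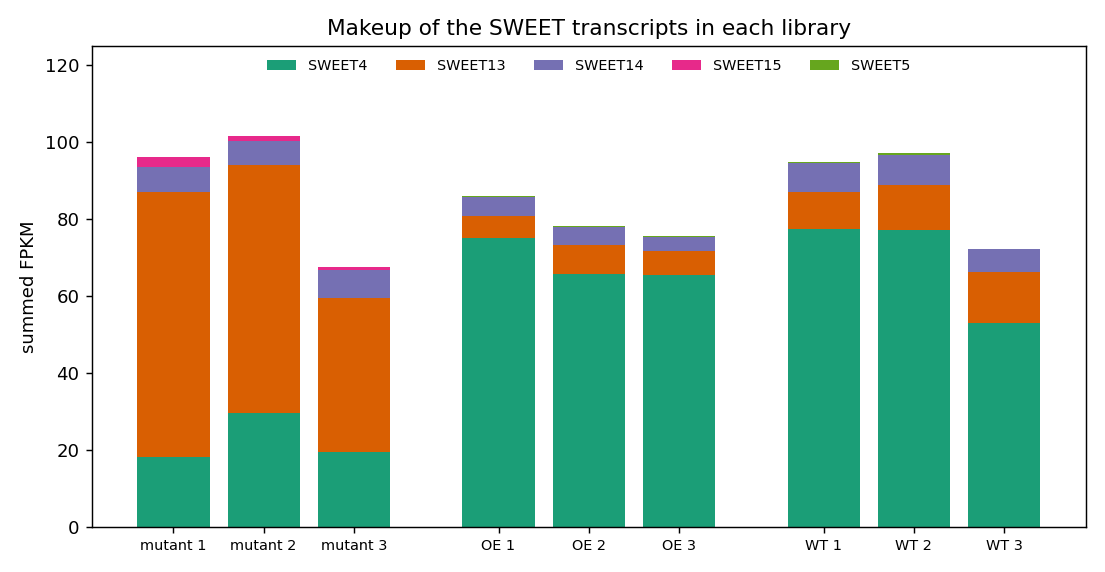
Summed FPKM of the 7 SWEET genes in each of the 9 libraries, stacked by gene on an axis that starts at 0. SWEET11 and SWEET12 are at 0 and not drawn, and other SWEET genes are left out. SWEET13 holds most of each mutant bar (59.4% to 71.6%) and SWEET4 most of each OE and WT bar (73.4% or more), while bar heights overlap between genotypes.

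In the mutant the order of levels ran from SWEET13 through SWEET4 and SWEET14 to SWEET15, and the library ranges of these neighbours did not overlap. In WT it ran from SWEET4 through SWEET13 and SWEET14 to SWEET5, again with no overlap of ranges. In OE, SWEET4 was also first, followed by SWEET13 at 5.74 to 7.51 FPKM and SWEET14 at 3.58 to 4.99 FPKM. Among the mutant libraries, spread also differed between genes. For SWEET13 in the mutant the SD was 26.7% of the mean, where counting alone gives 3.11%, and for SWEET4 in the mutant it was 28.1% against 5.45%. For SWEET14 in the mutant it was 8.17%, within the 9.55% that counting gives. In the other genotypes the SD of SWEET14 exceeded counting (16.9% against 11.55% in OE, 13.7% against 9.04% in WT). That of SWEET13 was similar there, at 13.75% in OE and 14.6% in WT.

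The genes whose pattern over the 9 libraries was most like that of a SWEET gene were found by Pearson's r of log2(FPKM + 1) among 19847 other tested genes. Far more genes were called in the mutant against WT (8333) or OE (8622) than in OE against WT (46). For SWEET4 and SWEET13, a high r can thus reflect little more than the difference of the mutant from the rest. The genes most like SWEET4 were Os03g0342900 (r = 0.998) and Os01g0272850 (r = 0.997), and 690 genes exceeded an r of 0.95. For SWEET13 they were Os12g0178000 (r = 0.997) and Os10g0369750 (r = 0.994), with 577 genes above 0.95. SWEET14 had no gene above 0.95, and Os11g0161100 came closest (r = 0.946). The files give no product names for these identifiers.

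Of 14 other SWEET identifiers listed, 8 carried names that the reference table supports, and 6 of these were high enough to test. In the mutant against WT, 2 rose, 1 fell and 3 did not pass, with a median log2 fold change of 0.32, against -0.01 over all tested genes. Over all tested genes 19.6% rose and 22.4% fell in this comparison, so 3 calls of 6 stand near the background. SWEET2b reached the level for testing only through the mutant (OE and WT libraries averaged 0.857 FPKM), so its place among the tested genes is not independent of its difference. SWEET2b, which encodes a transporter whose Arabidopsis relative sits in the vacuole membrane, showed the largest change among all tested SWEET genes. It was at 124, 83.2 and 76.1 FPKM in the mutant libraries, 0.657, 0.559 and 1.96 FPKM in OE and 0.376, 0.588 and 0.997 FPKM in WT. Every mutant library exceeded every OE and WT library (no overlap, in either direction, for 55.4% of tested genes against WT and 52.5% against OE). In the mutant SWEET2b stood above SWEET13. Its log2 fold change was 5.83 against WT (SE 0.27, limma adjusted p = 1.3e-06) and 5.56 against OE (SE 0.27, limma adjusted p = 1.3e-06). With a base this low the size depends on the pseudocount, from 4.11 with a pseudocount of 5 to 7.02 with 0.1 against WT, and the ratio of mean FPKM was 144.5. Without a filter on level it was 5.83 (limma adjusted p = 5.4e-06). SWEET1b, a relative of glucose transporters, was at 73.4 ± 21.4 FPKM in the mutant, 56.8 ± 8.44 FPKM in OE and 41.9 ± 4.63 FPKM in WT (SD, n = 3 each). It rose in the mutant against WT (log2 fold change 0.76, limma adjusted p = 0.011). The mutant did not pass against OE (0.33, limma adjusted p = 0.19), nor did OE against WT (0.43, limma adjusted p = 0.5).

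SWEET3a was at 4.70, 5.86 and 1.15 FPKM in the mutant libraries, 4.43, 3.79 and 1.12 FPKM in OE and 8.48, 19.9 and 8.75 FPKM in WT. WT libraries were above all others, where 29.4% of tested genes lay below WT without overlap in the mutant and 8.81% in OE. SWEET3a had a log2 fold change of -1.51 between mutant and WT leaves (limma adjusted p = 0.039, SE 0.51). The call was lost under 9 of 19 alternatives, with adjusted p up to 0.14. Among them were the fits without mutant replicate 1 or 3, without OE replicate 2 and without any 1 of the WT libraries. In OE the log2 fold change was -1.71 and did not pass (limma adjusted p = 0.3). SWEET1a, SWEET6b and SWEET16 did not pass in the mutant against WT (log2 fold changes 0.06, 0.58 and -0.18). SWEET6b was higher in the mutant than in OE by 1.06 (SE 0.23, limma adjusted p = 0.0051). It shares 1 entry of the reference table with SWEET6a, which was at 0 in every library. How reads that fit both copies were counted is not known. None of the 6 passed in OE against WT with limma, and SWEET3a alone had an unadjusted p under 0.05.

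**Figure D4:**
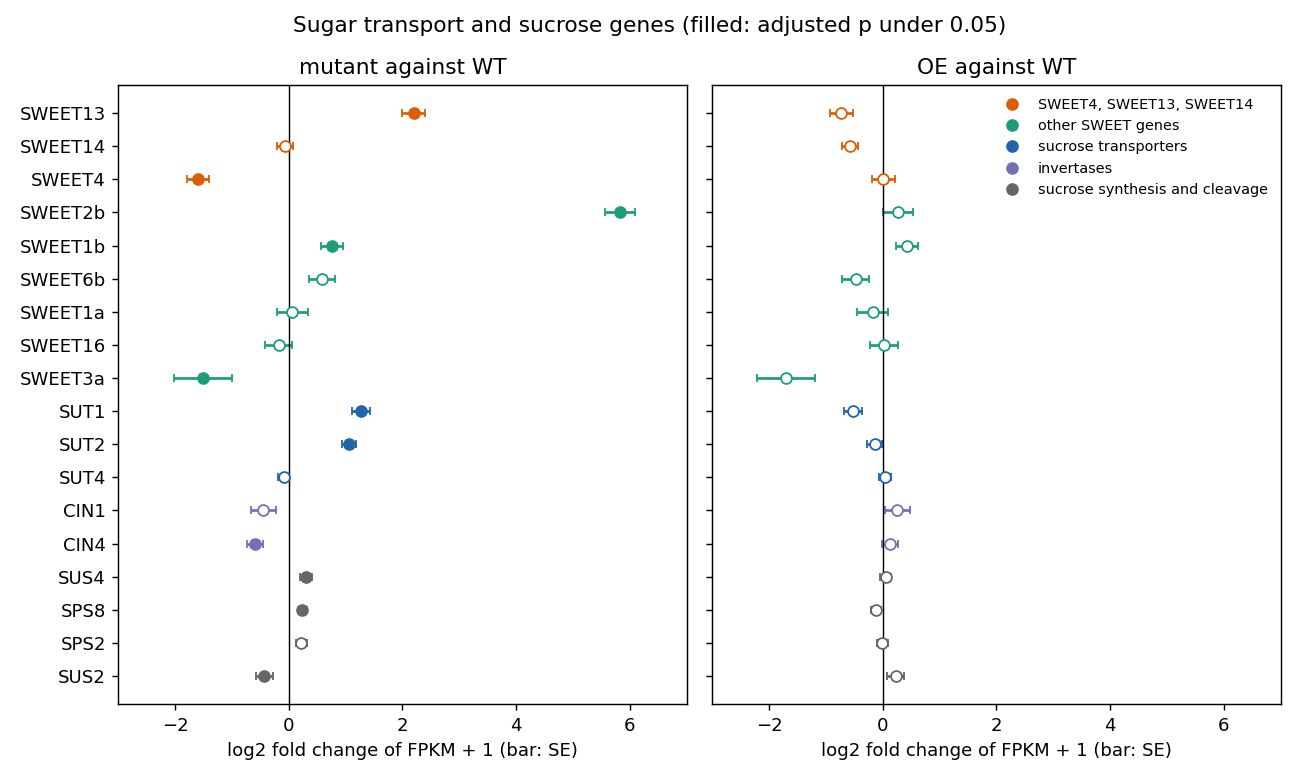
Log2 fold changes of FPKM + 1 with SE for tested SWEET, sucrose transporter, invertase and sucrose metabolism genes, for the mutant against WT (left) and OE against WT (right). Filled points passed an adjusted p under 0.05; in the left panel SWEET2b (5.83) and SWEET13 (2.20) lie farthest to the right, and in the right panel no point is filled.

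Sucrose that SWEET proteins release is taken into the phloem by SUT proteins, which carry it with protons. Of 3 tested SUT genes, 2 rose in the mutant against WT and 0 fell, where 19.6% of all tested genes rose. SUT1, a sucrose transporter, was at 136 ± 3.03 FPKM in the mutant, 39.0 ± 8.54 FPKM in OE and 56.0 ± 9.43 FPKM in WT (SD, n = 3 each). SUT2, which acts at the vacuole membrane, rose in the mutant by 1.06 on the log2 scale (SE 0.13, limma adjusted p = 0.00022), and SUT4 did not pass (-0.09, limma adjusted p = 0.48). Cell wall invertases split exported sucrose into hexoses, which SWEET4 can carry. Of 2 tested invertase genes CIN4 fell in the mutant against WT by 0.59 (SE 0.14, limma adjusted p = 0.0083), where 22.4% of all tested genes fell. CIN1 did not pass there (-0.45, limma adjusted p = 0.13). Against OE both were lower in the mutant (CIN1 -0.70 and CIN4 -0.72, limma adjusted p = 0.029 and 0.0029), as were 22.9% of all tested genes. Of 19 alternatives, 13 kept this call of CIN1.

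Of 4 tested genes that make or cleave sucrose, 2 rose and 1 fell in the mutant against WT, by small amounts, where 42.0% of all tested genes passed. The sucrose-phosphate synthase gene SPS8 rose by 0.24 and the sucrose synthase gene SUS4 by 0.30, whereas SUS2 had a log2 fold change of -0.43 (limma adjusted p = 0.03, 0.041 and 0.043). Of 19 alternatives, 12 kept the call of SPS8, 8 that of SUS2 and 6 that of SUS4, with adjusted p up to 0.096 for SPS8, 0.14 for SUS2 and 0.13 for SUS4. All 3 calls were lost without any 1 of the WT libraries (adjusted p up to 0.095 for SPS8 and 0.11 for SUS2 and SUS4). They were also lost without some libraries of the mutant (replicates 1 and 3 for SPS8 and SUS4, replicates 1 and 2 for SUS2) and, for SUS4 and SUS2, without any 1 of the OE libraries. Settings other than a left-out library also ended them, such as quantile normalization for SPS8 and SUS2, and no filter or a fit of the 2 groups alone for SUS2 and SUS4. None of the tested SUT, invertase, sucrose synthase and sucrose-phosphate synthase genes passed in OE against WT with limma, and of them SUT1 alone had an unadjusted p under 0.05 (0.011).

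The clock gene CCA1, which peaks around dawn, moved with the changes in the mutant. It was at 464, 381 and 352 FPKM in the mutant libraries, 8.37, 8.40 and 7.06 FPKM in OE and 9.01, 6.89 and 9.20 FPKM in WT. Mutant libraries stood far above the rest. No label states the time of day of sampling, and the part of the clock or of sampling time in the SWEET levels was not tested. By its identifier (Os08g0157600), CCA1 lies close to OsCOMT (Os08g0157500) on chromosome 8. Whether the mutation at OsCOMT acts on the level of CCA1 itself was not tested.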

How the data were processed

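The authors deposited FPKM per gene for 9 leaf libraries. Bowtie 0.12.2, Cuffdiff and build IRGSP-1.0 are listed, with no role for any, in the submitters' processing notes; how reads that fit several genes were counted is not given in the sources used here. Left out was 1 column of values that could be tied to none of the samples.

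The deposited FPKM were resolved into whole reads and library totals (relative tolerance 3e-06, all 30062 genes above 0). Replicates were kept separate, since no pair of one genotype was as close as counting noise allows (chi-square of 6.51 to 17.7 per gene). The test was limma 3.58.1 (R 4.3.3, eBayes with trend) on log2(FPKM + 1) with all 9 libraries in 1 fit, for the 19850 genes that averaged 1 FPKM or more. It was two-sided with Benjamini-Hochberg adjustment per comparison and a threshold of 0.05. The fold change understates low genes. The steps were also run on simulated reads with few changed genes and the same spread for every gene, unlike these data. No result here rests on that run. Genes with few reads were given as reads with exact binomial 95% intervals or a floor of 3 reads over a group.

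The members and lists were chosen with earlier results of these data known. Named are the 7 SWEET genes, up to 4 called genes per list and the most alike genes. Names were checked against the RefSeq table of assembly ASM3414082v1 by chromosome and relative rank (within 0.03), which 38 of 66 pairs met, and lists were counted over these. As alternatives, the pseudocount was set to 0.1 or 5, the filter was dropped or raised to 5 FPKM, and quantile or upper-quartile scaling was applied. The fit was also made on 2 groups only, without trend, with the replicate block, by voom on the recovered reads with trimmed-mean scaling, and without each of the 9 libraries in turn.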

Additional observations from a re-analysis of the deposited data

How the results depend on the processing

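The falls of SWEET4 and the rises of SWEET13 in the mutant kept their direction and side of the threshold under all 19 alternatives, against WT (-1.81 to -1.44 and 1.90 to 2.44) and against OE (-1.81 to -1.45 and 2.41 to 3.17). In OE against WT, SWEET13 and SWEET14 passed under none of them (lowest adjusted p 0.092 and 0.12). Near 0, SWEET14 in the mutant against WT turned to 0.0036 with quantile normalization. SWEET4 in OE against WT turned to -0.02 with quantile normalization, -0.06 without OE replicate 1 and -0.17 without WT replicate 3 (up to 0.1 without WT replicate 1). Genes called in OE against WT numbered 46, with 29 at a filter of 5 FPKM, where fewer genes were tested. They ranged from 27 without WT replicate 1 to 71 without OE replicate 1, where fewer samples were fitted. With the replicate number as a block, 8318, 38 and 8543 genes were called (mutant against WT, OE against WT, mutant against OE) and no call of the 3 tested SWEET genes changed, while SUS4 in the mutant against WT lost its call (adjusted p = 0.069). Same-numbered libraries deviated together weakly (r -0.07 to 0.21 over 9 pairs), and 6 of 18 best matches fell on the own number, as random matching would give. Whether same-numbered libraries share a batch could not be told from so few libraries. SWEET5, SWEET11, SWEET12 and SWEET15 are limited by depth.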

Other observations

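Among SWEET genes too low to test, SWEET2a had 10, 8 and 9 reads in the mutant libraries, 0, 2 and 8 reads in the OE libraries and 1, 2 and 3 reads in the WT libraries. Every mutant library had more reads than every WT library, and the read counts of the mutant and OE touched. Among tested genes, all of higher mean level than SWEET2a, 55.4% did not overlap between the mutant and WT in either direction. The share among genes as low as SWEET2a was not computed. SWEET6a was listed at 0 in all 9 libraries.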
